A study of Homo sapiens with 24 samples.

Results

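The difference between the oxaliplatin responses of HCT116 cells and HCT116 oxpl-R cells was measured gene by gene in 12 of the 24 RNA-seq samples of the series, the 4 groups that received no doxycycline, with 3 samples in each. HCT116 is a human colorectal carcinoma line with functional p53. HCT116 oxpl-R was derived from it by repeated short pulses of a high oxaliplatin concentration with recovery in between, and is a mixed population with a changed chromosome number rather than a described single clone. All samples of both lines carried the same Tet-On transgene for the adenoviral E1A protein, which is switched on by doxycycline and was therefore not induced in these 4 groups. The groups were HCT116 control and HCT116 oxpl-R control, both untreated, and HCT116 oxaliplatin and HCT116 oxpl-R oxaliplatin, both given 25 µM oxaliplatin for 24 h. The remaining 12 samples form the same 4 groups with 0.5 µg/mL doxycycline and are used below only for the same difference measured in other libraries.

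The question was which genes oxaliplatin changed differently in the resistant line. For each gene, the response is the log2 change from a line's own controls to its treated samples, and the interaction is the HCT116 oxpl-R response minus the HCT116 response. A positive interaction therefore means a response that was higher, or less negative, in HCT116 oxpl-R. Values are the authors' estimated counts per gene, and levels are given as normalized counts, that is counts scaled to a common library size. A gene is called where the adjusted p of the edgeR quasi-likelihood test was below 0.05 over all genes tested. The labels call the 3 samples of a group biological replicates without saying which were separate cultures prepared on different days, so p-values measure the spread between these samples.

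The count table ended at the gene SETP6 in alphabetical order, and genes from there to TSC22D3 were taken from a second table of length-scaled counts. In the count table the 12 libraries held 24838095 to 31432410 counts, with a median of 29471792. One library stood apart in its share of mitochondrial counts. Genes of the mitochondrial genome took 1.38% of the counts in HCT116 oxpl-R oxaliplatin replicate 1 and 11.03% to 19.7% in the other 11. A second library, HCT116 oxaliplatin replicate 3, correlated with the other members of its group at 0.982 and 0.985 (Pearson r of log2 levels across genes), against 0.9965 between those members. The 3 HCT116 oxpl-R oxaliplatin libraries correlated with one another at 0.984 to 0.988, so such values were not particular to that library. Counts of interaction calls are also given without both libraries, a choice made after seeing the data, where they moved by more than 1.5 times. Of 19 colon epithelial markers tested, 9 reached 10 normalized counts on average, among them KRT8, KRT18 and KRT19, the keratins of simple epithelium. Of 16 markers of fibroblasts, leukocytes and endothelium, 6 did, and none of the 16 was called by the interaction, with or without both libraries. In RNA from whole cultures, fewer cells of a kind and less RNA per cell cannot be told apart.

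Oxaliplatin is a platinum drug that links neighbouring purines of DNA and, less often, the 2 strands. Such lesions stall replication and transcription and activate the checkpoint kinases and p53. Activated p53 induces CDKN1A, the inhibitor of cyclin-dependent kinases, and through it the repressor complex DREAM, which shuts genes of the cell cycle. Genes of DNA replication are driven by E2F factors from E2F elements, and genes of mitosis are controlled through the CHR element, often with CCAAT boxes nearby, in their promoters. The excision repair and Fanconi anemia pathways remove the lesions, and the BCL2 family and death receptors decide whether damaged cells die.

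The sequences upstream of 5 cell cycle genes are shown because the genes with the clearest differences between the lines came from these groups. They are the 150 bases that end just before the RefSeq transcription start (GRCh38.p14), written 5′ to 3′ on the strand of the gene, and were taken from called genes whose stretch overlaps no annotated exon. Capitals mark the CHR element (TTTGAA), the CCAAT box (CCAAT) and the E2F element (TTGGCGC or TTCGCGC), each searched on both strands. CDC20 and GTSE1 act in mitosis, and E2F1, ORC1 and CDT1 belong to the list of DNA replication. CDC20 lies at chr1:43358831-43358980 on the plus strand, GTSE1 at chr22:46296720-46296869 (plus), E2F1 at chr20:33686386-33686535 (minus), ORC1 at chr1:52404424-52404573 (minus) and CDT1 at chr16:88803639-88803788 (plus).
CDC20: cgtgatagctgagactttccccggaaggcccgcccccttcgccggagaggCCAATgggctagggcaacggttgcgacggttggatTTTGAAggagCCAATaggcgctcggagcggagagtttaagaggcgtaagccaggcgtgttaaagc
GTSE1: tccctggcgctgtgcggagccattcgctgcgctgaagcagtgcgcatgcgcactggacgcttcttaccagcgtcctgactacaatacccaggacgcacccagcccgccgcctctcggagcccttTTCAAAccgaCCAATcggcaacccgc
E2F1: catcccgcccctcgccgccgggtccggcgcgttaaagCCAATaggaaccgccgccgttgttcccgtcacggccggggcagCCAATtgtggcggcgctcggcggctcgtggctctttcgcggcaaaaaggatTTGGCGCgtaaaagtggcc
ORC1: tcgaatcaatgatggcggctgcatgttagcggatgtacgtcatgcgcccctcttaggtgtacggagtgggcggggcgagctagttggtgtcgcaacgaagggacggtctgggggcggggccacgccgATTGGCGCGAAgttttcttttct
CDT1: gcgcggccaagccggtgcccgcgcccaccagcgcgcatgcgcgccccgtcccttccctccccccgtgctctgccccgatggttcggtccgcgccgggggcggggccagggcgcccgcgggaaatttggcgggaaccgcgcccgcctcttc
In CDC20 the CHR match began 65 bases before the start, between CCAAT boxes at 100 and 55 bases. GTSE1 had a CHR match on the opposite strand at 26 bases and a CCAAT box at 16. E2F1 had an E2F match at 19 bases. ORC1 had overlapping E2F matches at 22 and 19 bases, with a reverse CCAAT box that overlaps the first at 23. CDT1 had none of these letters in its stretch. It holds TTGGCGG, which differs from TTGGCGC in the last letter and was not searched. Its lack of a match therefore does not show that it lacks an E2F element.

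Over the 250 bases before the start, 19 of 34 promoters of G2 and M genes held a CHR match (55.9%). The share was 9.96% among 14222 promoters of genes tested, the background used throughout here. A CCAAT box was found in 27 of the 34 (79.4%, against 33.9%), and an E2F match in 10 of 38 promoters of replication genes (26.3%, against 6.06%). Among the 301 promoters of all genes with a negative interaction call, in contrast, the shares were 9.63% for CHR and 7.31% for E2F, near the shares of 9.96% and 6.06% among 14222 genes tested, and 44.5% against 33.9% for the CCAAT box. For other lists, the ATF4 element TGATGCA was in 4 of 25 promoters of integrated stress response targets (16%, against 1.62%). The AP-1 element TGANTCA was in 0 of 19 promoters of immediate early genes (against 5.04%), and the p53 element was in 0 of 24 promoters of p53 targets (against 0.0352%). These matches describe the sequences only, and other forms of the E2F element were not searched.

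The lines differed in how they responded to oxaliplatin at 437 of 17876 genes of the count table (2.44%). The interaction was positive at 124 of them (0.694%) and negative at 313 (1.75%). At 400 of the 437 (2.24% of genes tested) the difference exceeded 1 on the log2 scale, and at an unadjusted p below 0.05 there were 2844 genes (15.9%). Among genes after SETP6, 112 of 3142 were called (3.56%), with 35 positive (1.11%) and 77 negative (2.45%). Without both libraries named above, 3233 genes were called, 1552 positive and 1681 negative, and they included all 437. Counts of list members without both libraries, given below, are to be read against these 3233 calls. With the replicate number as a block in HCT116 oxpl-R, where same-numbered controls and treated samples deviated together, 883 genes were called and 435 of the 437 remained. Leaving out single libraries moved the count between 127 and 1567. It was 133 without HCT116 control replicate 1, 127 without replicate 2, 202 without HCT116 oxaliplatin replicate 1, 1567 without HCT116 oxaliplatin replicate 3, 224 and 211 without HCT116 oxpl-R control replicates 1 and 2, and 1319 without HCT116 oxpl-R oxaliplatin replicate 1. The other 5 gave between 294 and 385. The sign of the interaction at the 437 genes was the same in every one of these fits. They reuse most of the samples by which those genes were selected, so this was likely from the outset.

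HCT116 responded at 3110 genes (17.4%), where 1761 rose (9.85%) and 1349 fell (7.55%). HCT116 oxpl-R responded at 1045 (5.85%), where 545 rose (3.05%) and 500 fell (2.8%). These shares, and those of the interaction above, are the background for the gene lists below. Without both libraries named above, 5774 genes responded in HCT116 and 1694 in HCT116 oxpl-R, the background for list responses in that fit. Among genes after SETP6, HCT116 responded at 589 of 3142 (18.7%), where 341 rose (10.9%) and 248 fell (7.89%), and HCT116 oxpl-R at 189 (6.02%), where 90 rose (2.86%) and 99 fell (3.15%). The responses of the lines share no samples. Across 10998 genes with at least 10 normalized counts, referred to as expressed, the median size of the response was 0.52 in HCT116 and 0.29 in HCT116 oxpl-R on the log2 scale. Across these genes the responses correlated at 0.37 (Pearson r, a description across genes that share libraries) and at 0.26 without both libraries named above. At 540 genes both lines were called, 518 of them in the same direction. Of 10997 expressed genes with a value in the doxycycline groups too, 10564 were not called by the interaction. Shares over all genes also cover genes with fewer counts. They are therefore a low background for lists whose members are mostly expressed.

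The 2 kinds of interaction call had different compositions. Of the 313 negative ones, 167 rose in HCT116 and were not called in HCT116 oxpl-R, 99 were not called in HCT116 and fell in HCT116 oxpl-R, and 19 rose in HCT116 and fell in HCT116 oxpl-R. Another 11 fell in both, 7 rose in both and 10 were called in neither. Of the 124 positive ones, 86 fell in HCT116 alone, 26 rose in HCT116 oxpl-R alone and 3 fell in HCT116 and rose in HCT116 oxpl-R. The remaining 9 comprised 6 that rose in both, 1 that fell in both and 2 called in neither.

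**Figure D1:**
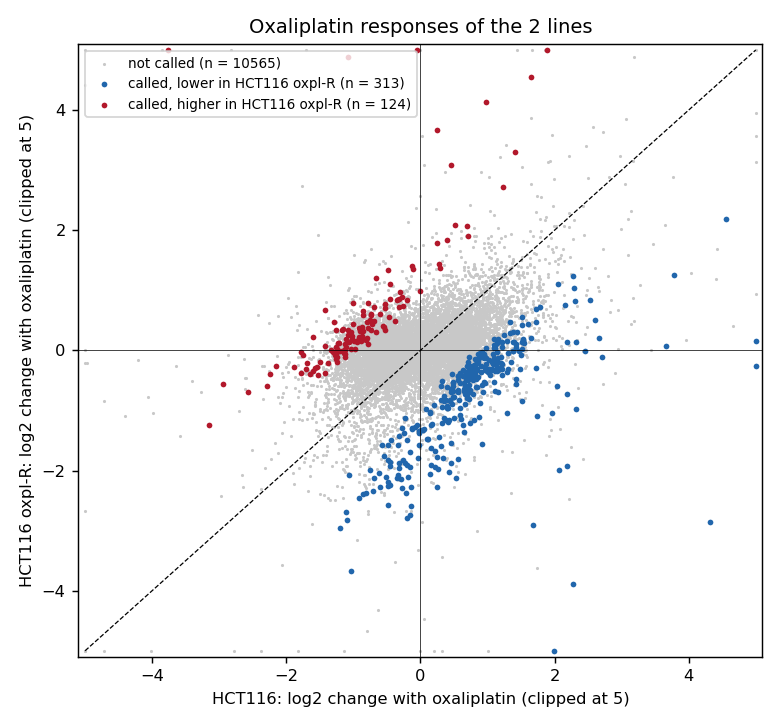
Log2 change with oxaliplatin in HCT116 (horizontal) and in HCT116 oxpl-R (vertical) for each expressed or called gene of the count table, clipped at 5, with the dashed line where the responses are equal. Genes called by the interaction are coloured, 313 below the line in blue and 124 above it in red, and most lie near one of the axes.

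Genes of the G2 and M phases, which carry cells through mitosis, fell in HCT116 oxpl-R far more than in HCT116. Of 40 tested, 32 fell in HCT116 oxpl-R and 15 in HCT116, and none rose in either line. The interaction was negative at 38 and called at 13, all negative, where the background of negative calls was 1.75%. The median response was -0.77 in HCT116 and -1.96 in HCT116 oxpl-R, and the median interaction was -1.12, against 0.04 over expressed genes. Leaving out single libraries gave 10 to 17 calls. Without both libraries named above there were 17, all negative, with a median interaction of -0.67, and 26 of the 40 fell in HCT116.

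CDC20, the activator of the anaphase-promoting complex, had 11544, 11814 and 14552 normalized counts in the HCT116 controls and 12087, 11536 and 10426 after oxaliplatin. In HCT116 oxpl-R it had 8649.6, 8969 and 9593 in the controls and 1569.9, 1174 and 1342 after oxaliplatin. The treated HCT116 samples thus overlapped their controls, and the treated HCT116 oxpl-R samples lay far below every other sample. The interaction was -2.58 ± 0.24 (SE; adjusted p = 1.83e-05 by edgeR), with responses of -0.15 and -2.74. PLK1, the mitotic kinase, went from 6599.8, 6450.3 and 7788 to 6409.7, 5904 and 5823 in HCT116, and from 4850.5, 4956 and 4771 to 895, 484 and 726 in HCT116 oxpl-R. The 4 groups did not overlap, the treated HCT116 samples lay just below their controls and the treated HCT116 oxpl-R samples far below theirs, and the interaction was -2.59 ± 0.27 (adjusted p = 6.15e-05).

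FOXM1, the transcription factor of the mitotic program, had 4849, 5154 and 6236 normalized counts in HCT116 controls and 5605, 6114 and 6442 after oxaliplatin, against 3576, 3891 and 3713 and then 1119, 917 and 926 in HCT116 oxpl-R. It did not pass the test in HCT116 (0.16) and fell in HCT116 oxpl-R (-1.92), with an interaction of -2.08 ± 0.23. CDCA8, a subunit of the chromosomal passenger complex with AURKB, BIRC5 and INCENP, went from 3288, 3441 and 4105 to 3341, 3123 and 2906 in HCT116 and from 2925, 3014 and 2557 to 511, 547 and 587 in HCT116 oxpl-R, an interaction of -2.16 ± 0.22. All 4 subunits of that complex were called, AURKB at -2.24, BIRC5 at -2.20 and INCENP at -1.01. INCENP was called in 6 of the 12 fits that left out 1 library and was lost without HCT116 control replicates 1 and 2, HCT116 oxaliplatin replicate 1, HCT116 oxpl-R control replicates 1 and 2 and HCT116 oxpl-R oxaliplatin replicate 2. CENPA, the histone variant of centromeres, was called at -2.45, GTSE1 at -1.78, the kinesins KIF20A and KIF2C at -1.72 and -1.41, CCNB2 at -1.54 and the spindle factor TPX2 at -1.14. CDC20, PLK1, FOXM1 and CDCA8 were called in all 12 fits that left out 1 library.

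Not every mitotic gene differed. CCNB1, the cyclin that enters mitosis with CDK1, fell by 1.40 in HCT116 and by 1.74 in HCT116 oxpl-R, and its interaction of -0.34 had a 95% interval from -1.07 to 0.39. CDC25C, the phosphatase that activates CDK1, fell by 1.23 and by 1.27, and ARL6IP1 fell by 1.01 and by 1.04. PKMYT1, the kinase that restrains CDK1, was outside the list and took the opposite course in each line. It went from 2617, 2619 and 3039 to 4368, 4143 and 3743 normalized counts in HCT116, where it rose by 0.57, and from 1689, 1815 and 1909 to 646, 506 and 398 in HCT116 oxpl-R, where it fell by 1.80. The samples of the 4 groups did not overlap, and the interaction was -2.37 ± 0.25 (adjusted p = 6.96e-05).

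Genes of DNA replication showed the same arrangement. Of 47 tested, 38 fell in HCT116 oxpl-R and none rose, while 11 fell and 4 rose in HCT116. The interaction was negative at 43 and called at 18 (38.3%, against 2.44% of all genes), all negative. The median response was -0.46 in HCT116 and -1.45 in HCT116 oxpl-R, and the median interaction was -0.99. The count of calls was 9 without HCT116 control replicate 1, 9 without replicate 2, 12 and 10 without HCT116 oxpl-R control replicates 1 and 2, 14 to 24 without any other single library and 26 without both libraries named above, where 22 genes fell and 7 rose in HCT116.

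E2F1, the founding member of the factors that drive this program, had 2329, 2198 and 2712 normalized counts in HCT116 controls and 3652, 3203 and 3574 after oxaliplatin. In HCT116 oxpl-R it had 2408, 2767 and 2762 in controls and 688, 551 and 583 after oxaliplatin. The controls of the lines overlapped, while every treated HCT116 sample lay above them and every treated HCT116 oxpl-R sample below. E2F1 rose by 0.53 in HCT116 (adjusted p = 0.0292) and fell by 2.12 in HCT116 oxpl-R (adjusted p = 3.12e-07), and the interaction was -2.65 ± 0.23 (adjusted p = 1.79e-05), the smallest adjusted p of the list. E2F2 and E2F8 were called at -1.90 and -1.56.

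CDT1, which loads the replicative helicase onto origins, went from 4068, 4151 and 4722 to 5158, 5258 and 4875 normalized counts in HCT116 and from 2681, 2762 and 3029.9 to 762, 494 and 498 in HCT116 oxpl-R. Its rise of 0.24 in HCT116 did not pass the test, and the interaction was -2.51 ± 0.25. MCM5, a subunit of that helicase, went from 8706, 8649.5 and 9892 to 7227, 7345 and 6909 in HCT116 and from 5490.0, 5859.7 and 6510.3 to 1617, 1218 and 1272 in HCT116 oxpl-R, an interaction of -1.78 ± 0.23. Of the other helicase subunits, MCM2, MCM3, MCM4 and MCM7 were called at -1.76, -1.29, -1.0 and -1.35, and MCM6 at -0.39 was not. The calls of MCM3 and MCM4 were kept in 8 and 9 of the 12 fits that left out 1 library and lost without HCT116 control replicates 1 and 2 and HCT116 oxpl-R control replicate 2, MCM3 also without HCT116 oxpl-R control replicate 1. TK1, which makes thymidine monophosphate and was read from the second table, went from 12217, 12151 and 13950 to 20023, 20302 and 19774 in HCT116 and from 8119.6, 8449.5 and 9561 to 3971, 2513 and 3429.9 in HCT116 oxpl-R. It thus rose by 0.65 in HCT116 and fell by 1.40 in HCT116 oxpl-R, without overlap of the 4 groups. E2F1, CDT1, MCM5 and TK1 were called in all 12 fits that left out 1 library.

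PCNA, the sliding clamp, which p53 also induces, did not follow the others. It averaged 9950 and 9474 normalized counts in HCT116 and 16283 and 15694 in HCT116 oxpl-R without and with oxaliplatin, and its interaction was 0.02 with a 95% interval from -0.53 to 0.56. Subunits of DNA polymerase delta were called by the interaction, POLD1 and POLD2, which rose in HCT116 by 0.70 and 0.60. Their responses in HCT116 oxpl-R, -0.64 and -0.40, did not pass the test. Both calls were lost without HCT116 control replicates 1 and 2, and that of POLD2 also without HCT116 oxaliplatin replicate 1 and HCT116 oxpl-R control replicate 2.

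Targets of p53 rose in both lines. Of 30 tested, 21 rose and 1 fell in HCT116, and 25 rose and none fell in HCT116 oxpl-R, with median responses of 1.25 and 1.42. The interaction was called at 5 of 30 (16.7%, against 2.44% of all genes), 4 positive and 1 negative, and its median was 0.07. CDKN1A, the inhibitor that halts the cell cycle, averaged 4020 normalized counts in HCT116 controls and 54527 after oxaliplatin, and 15660 and 115180 in HCT116 oxpl-R. It rose by 3.76 in HCT116 and by 2.88 in HCT116 oxpl-R, and the difference of -0.88 did not pass the test. GDF15, a secreted stress cytokine, rose by 3.00 and 2.02, FDXR, the ferredoxin reductase of mitochondria, by 2.22 and 2.05, and BTG2, an antiproliferative factor, by 2.43 and 1.92. None of these differences was called.

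MDM2, the ubiquitin ligase that degrades p53, passed the test in the resistant line, and the difference between the lines was called as well. It had 2860.4, 2904 and 2681 normalized counts in HCT116 controls and 3101, 3623 and 5408 after oxaliplatin, against 5028, 4514 and 4233 and then 16937, 19335 and 22426 in HCT116 oxpl-R. The responses were 0.52 and 2.09, and the interaction was 1.57 ± 0.28 (adjusted p = 0.00559). The highest treated HCT116 sample, 5408, was replicate 3, and without that library and HCT116 oxpl-R oxaliplatin replicate 1 the interaction was 1.93. TP53I3, an oxidoreductase read from the second table, had 415, 365 and 417 in HCT116 controls and 2140.2, 2239.8 and 1184 after oxaliplatin, and 597, 803 and 876 and then 10380, 9466 and 9597 in HCT116 oxpl-R. It rose in both lines, by 2.22 and by 3.69, and the interaction was 1.48 ± 0.30 (adjusted p = 0.0127). Both were called in all 12 fits that left out 1 library.

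DDB2, which finds damaged DNA for excision repair, was the p53 target with a negative call (-0.95). It rose by 2.05 and by 1.10. The call was lost without any 1 of HCT116 control replicates 1, 2 and 3 (-0.97, -0.90 and -0.99), HCT116 oxaliplatin replicates 1 and 2 (-0.91 and -0.92), HCT116 oxpl-R control replicates 1 and 2 (-0.95 and -0.94) and HCT116 oxpl-R oxaliplatin replicate 2 (-0.85). Of the other positive calls, SUSD6 was lost without HCT116 control replicate 2, HCT116 oxaliplatin replicate 1 and HCT116 oxpl-R control replicate 2, and ACER2 was kept only without HCT116 oxaliplatin replicate 3 and without HCT116 oxpl-R oxaliplatin replicate 1. Without both libraries named above, 12 targets were called positive and 7 negative, in a fit that called 3233 genes in place of 437.

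In the BCL2 family of apoptosis regulators, 8 of 18 genes rose in HCT116 and 3 in HCT116 oxpl-R, where 1 fell. The interaction was called at 2 (11.1%, against 2.44% of all genes), both negative, or at 7 without both libraries, and was below 0 at 14. BBC3 (PUMA), which neutralizes the survival proteins of the family, had 648, 644 and 644 normalized counts in HCT116 controls and 3439, 3132 and 2943 after oxaliplatin, and 1034, 1138 and 1064 and then 2652, 2471 and 1499 in HCT116 oxpl-R. It rose in both lines, by 2.30 and by 1.03, with an interaction of -1.26 ± 0.27 (adjusted p = 0.0192). The call was lost without HCT116 control replicate 1 (-1.27), HCT116 control replicate 2 (-1.26) and HCT116 oxaliplatin replicate 1 (-1.23). BCL2L12 went from 3201, 3126 and 3670.2 to 5137, 4257 and 3596 in HCT116 and from 1919.6, 2344 and 2272 to 1183, 901 and 841 in HCT116 oxpl-R, where it fell by 1.16, and its interaction was -1.54 ± 0.26. The effector BAX rose by 1.74 and 1.06, BAD, a sensitizer, by 1.11 in HCT116 with 0.09 in HCT116 oxpl-R, and neither difference was called. BCL2L1, MCL1 and PMAIP1 had interactions of -0.43, 0.56 and 0.15, none of them called.

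Among death receptors and their signalling, 4 of 19 genes rose in each line. The interaction was called at 2 (10.5%, against 2.44% of all genes), both positive, or at 6 positive and 2 negative without both libraries. TNFRSF10D, a decoy receptor that binds the ligand TRAIL without a full death domain, had 1606, 1647 and 1329 normalized counts in HCT116 controls and 1627, 1812 and 1644 after oxaliplatin, and 3893, 3504 and 3296 and then 9388, 9250.5 and 8402 in HCT116 oxpl-R. It did not pass the test in HCT116 (0.15) and rose by 1.3 in HCT116 oxpl-R, an interaction of 1.19 ± 0.21 (adjusted p = 0.00519) that was called in all 12 fits that left out 1 library. The other call was the signalling receptor TNFRSF10A, which was kept in 2 of those 12 fits, without HCT116 oxaliplatin replicate 3 and without HCT116 oxpl-R oxaliplatin replicate 2. The related receptor TNFRSF10B rose by 0.78 and 1.14 and FAS by 1.01 and 1.78, with interactions of 0.36 and 0.77 that were not called.

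The lists of DNA repair are read against all genes of the count table, of which 7.55% fell in HCT116 and 2.8% in HCT116 oxpl-R. Of 30 genes of the Fanconi anemia pathway and homologous recombination, 11 fell in HCT116 oxpl-R and none rose. In HCT116, 3 fell and 1 rose. The interaction was called at 2 (6.67%, against 2.44% of all genes), both negative. Without both libraries 14 fell and 3 rose in HCT116, and 2 positive and 6 negative interactions were called. Over all genes of the count table, that fit called 3233 interactions in place of 437 and 5774 HCT116 responses in place of 3110. FANCG, a subunit of the Fanconi core complex, went from 2413, 2476 and 2817 to 3656, 3423 and 3153 normalized counts in HCT116 and from 1649.6, 1679 and 1818 to 1108, 731 and 820.4 in HCT116 oxpl-R. The treated HCT116 samples lay above their controls and the treated HCT116 oxpl-R samples below theirs. The response of 0.41 in HCT116 did not pass the test, and the interaction was -1.36 ± 0.24 (adjusted p = 0.00645), called in all 12 fits that left out 1 library. EXO1, an exonuclease, was lost without any 1 of HCT116 control replicates 1, 2 and 3, HCT116 oxpl-R control replicate 2 and HCT116 oxpl-R oxaliplatin replicate 2.

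Of 19 genes of nucleotide excision repair, 8 fell and 3 rose in HCT116, and 1 rose and none fell in HCT116 oxpl-R. The median response was -0.56 in HCT116 and 0.12 in HCT116 oxpl-R. The interaction was called at 1 gene (5.26%, against 2.44% of all genes), CETN2, a subunit of the XPC complex, at 1.26. It was lost without HCT116 control replicates 1 and 2, HCT116 oxaliplatin replicate 1 and HCT116 oxpl-R control replicates 1 and 3. Subunits of the repair and transcription factor TFIIH were among those that fell in HCT116, CCNH by 1.12, CDK7 by 1.09 and MNAT1 by 1.09, while ERCC1, the partner of the nuclease XPF, rose in both lines, by 0.96 and 0.70. Without both libraries named above, 8 of the 19 were called positive and 1 negative. Of 11 genes of translesion synthesis none was called by the interaction, 1 rose in HCT116 and 3 fell in HCT116 oxpl-R. Without both libraries 3 were called positive and 2 negative, among them PCLAF at -1.79 and MAD2L2 at -1.05, and 6 fell in HCT116. Of 17 checkpoint genes 3 fell in HCT116 and 4 in HCT116 oxpl-R, and 1 was called by the interaction (5.88%). Without both libraries 2 were called positive and 4 negative, and 9 fell in HCT116. The 1 call was H2AX, the histone variant phosphorylated at DNA breaks, with 8380.5, 8327 and 9591 normalized counts in HCT116 controls, 8059.8, 7484 and 6853 after oxaliplatin, 6547, 6758 and 5996 in HCT116 oxpl-R controls and 2150.0, 1868 and 1217 after oxaliplatin. The interaction was -1.65 ± 0.27 (adjusted p = 0.00291) and was called in all 12 fits that left out 1 library.

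Among genes that handle platinum and its oxidative stress, 1 of 21 transporters and chaperones was called by the interaction (4.76%, against 2.44% of all genes), 1 rose and 1 fell in HCT116 and 2 rose in HCT116 oxpl-R. The call was ATOX1, a copper chaperone, at -1.04, and was kept only without HCT116 oxaliplatin replicate 3, without HCT116 oxpl-R oxaliplatin replicate 1 and without its replicate 3. Without both libraries 5 were called positive and 1 negative. SLC31A1, the copper transporter that also admits platinum, fell by 0.65 in HCT116 and did not pass the test in HCT116 oxpl-R (-0.21). The efflux pumps ABCC1 and ABCC2 had interactions of 0.20 and 0.60, neither called. None of 8 metallothioneins, small thiol proteins that bind platinum, was called by the interaction, or 3, all negative, without both libraries, among them MT1E at -1.28. MT2A, the most abundant, had 2856, 2158 and 2407 normalized counts in HCT116 controls, 5562, 4746 and 5138 after oxaliplatin, 3052, 2171 and 1851 in HCT116 oxpl-R controls and 2718, 25.8 and 1626 after oxaliplatin. The value of 25.8, in replicate 2, lay far below the other members of its group. That library also held the outlying ACTA1 value given below. It was left out only on its own and is not part of the fit without both libraries. Of 30 NRF2 targets and glutathione genes, 9 rose and 4 fell in HCT116, 5 rose and 1 fell in HCT116 oxpl-R, and the interaction was called at 1 positive and 2 negative (10%), or at 4 positive and 10 negative without both libraries. The negative calls, GSTP1, a glutathione transferase, and GPX3, were kept in 2 and 3 of the 12 fits that left out 1 library, both without HCT116 oxaliplatin replicate 3 and without HCT116 oxpl-R oxaliplatin replicate 1, and GPX3 also without HCT116 oxpl-R control replicate 3.

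AKR1B10, an aldo-keto reductase of that list, had 29.99, 16.8 and 13.9 normalized counts in HCT116 controls, 18.8, 30.1 and 34.3 after oxaliplatin, 35.7, 48.2 and 38.6 in HCT116 oxpl-R controls and 353, 377 and 313 after oxaliplatin. Its treated HCT116 oxpl-R samples were the highest by a wide margin, and the interaction was 2.63 ± 0.45 (adjusted p = 0.00427), called in all 12 fits that left out 1 library. It has close paralogs, among which reads can be split. HMOX1 and GPX1 rose in both lines, by 1.02 and 0.60 and by 1.29 and 0.82. SLC7A11, the cystine importer, fell in both, by 2.16 and by 1.75.

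Targets of the integrated stress response, which ATF4 drives when amino acids or protein folding fail, fell more often than they rose in both lines. Of 29, 12 fell and 3 rose in HCT116, and 11 fell and 3 rose in HCT116 oxpl-R. The interaction called 2 in each direction (13.8%, against 2.44% of all genes), or 5 positive and 7 negative without both libraries. The negative calls, PHGDH and PCK2, enzymes of serine synthesis and gluconeogenesis, were kept in 5 and 3 of the 12 fits that left out 1 library, and both were lost without any 1 of the HCT116 controls. ASNS, the asparagine synthetase, went from 3878, 3863 and 2334 to 1228, 1461 and 1202 normalized counts in HCT116 and from 7493, 5427 and 7368 to 2687, 1966 and 2787 in HCT116 oxpl-R. Its falls of 1.37 and 1.45 differed by -0.08, with a 95% interval from -0.70 to 0.55. DDIT3 (CHOP), a factor of the same pathway linked to cell death, had 252, 246 and 152 in HCT116 controls, 112, 124 and 88.0 after oxaliplatin, 279, 295 and 203 in HCT116 oxpl-R controls and 481, 439.8 and 417 after oxaliplatin. It fell by 1.01 in HCT116, its rise of 0.78 in HCT116 oxpl-R did not pass the test, and the interaction was 1.79 ± 0.35 (adjusted p = 0.0112). The call was lost without HCT116 control replicate 1 (1.67) and without HCT116 control replicate 2 (1.69).

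Of 21 heat shock proteins, 6 fell and 2 rose in HCT116, and 1 rose in HCT116 oxpl-R. The interaction was called at 1 positive and 1 negative (9.52%, against 2.44% of all genes), or at 6 positive and 3 negative without both libraries. The negative call, HSPB1, was kept only without HCT116 oxaliplatin replicate 3 and without HCT116 oxpl-R oxaliplatin replicate 1. HSPA5, the chaperone of the endoplasmic reticulum, had 26829, 27023 and 29115 normalized counts in HCT116 controls and 13124, 12419 and 13741 after oxaliplatin, and 22808, 23164 and 22486 and then 33754, 21651 and 25971 in HCT116 oxpl-R. The treated HCT116 samples were the lowest without overlap, and the interaction was 1.33 ± 0.26 (adjusted p = 0.0111), called in all 12 fits that left out 1 library. The cytosolic chaperone HSPA8 fell by 1.87 in HCT116 with -0.62 in HCT116 oxpl-R, a difference of 1.25 that was not called.

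Of 30 immediate early and AP-1 genes, 15 rose and 2 fell in HCT116 and 6 rose and 1 fell in HCT116 oxpl-R, with 1 positive and 2 negative interaction calls (10%), or 3 positive and 8 negative without both libraries. EGR1, the positive call, was kept only without HCT116 oxaliplatin replicate 3 and without HCT116 oxpl-R oxaliplatin replicate 1. FOSL1 was kept in 6 and ARC in 9 of the 12 fits that left out 1 library, and both were lost without HCT116 control replicates 1 and 2 and HCT116 oxpl-R control replicate 1. CCN2, a matricellular protein, rose by 1.77 and 1.01, and JUNB by 1.17 and 0.66. Of 25 NF-kappaB targets, 8 rose and 1 fell in HCT116, 2 rose in HCT116 oxpl-R, and none was called by the interaction, or 5, all negative, without both libraries. ICAM1, an adhesion receptor, rose by 1.82 and 0.79. Of 35 interferon-stimulated genes, 3 rose in HCT116, and 2 rose and 2 fell in HCT116 oxpl-R. The interaction was called at 1 (2.86%, near the 2.44% of all genes), or at 2 positive and 5 negative without both libraries. The 1 call was OAS3, a sensor of double-stranded RNA, with 2129, 2183 and 2249 normalized counts in HCT116 controls, 2294, 2070.4 and 2362 after oxaliplatin, 1258, 1325 and 1175 in HCT116 oxpl-R controls and 523, 475 and 506 after oxaliplatin. It fell by 1.32 in HCT116 oxpl-R and was at 0.04 in HCT116, an interaction of -1.36 ± 0.21 (adjusted p = 0.00242), while ISG15 rose by 1.42 and 1.01.

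In the lists of metabolism and growth, most response calls were those of HCT116, as over all genes of the count table (17.4% against 5.85%). Of 68 nuclear subunits of oxidative phosphorylation, 13 rose and 6 fell in HCT116, and 1 rose in HCT116 oxpl-R. The interaction was called at 4 (5.88%, against 2.44% of all genes), all negative. Without both libraries named above, 4 were called positive and 34 negative, and 45 rose in HCT116. That fit called 3233 interactions and 5774 HCT116 responses over all genes of the count table, in place of 437 and 3110. NDUFS7, a subunit of complex I, rose by 0.75 in HCT116 with -0.34 in HCT116 oxpl-R, and its call was lost without HCT116 control replicate 1 (-1.08), HCT116 control replicate 2 (-1.03), HCT116 oxaliplatin replicate 1 (-1.02) and HCT116 oxpl-R control replicate 2 (-1.03). CYC1, COX5B and COX8A, the other calls, were lost without the same 4 libraries as well.

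Of 75 cytosolic ribosomal proteins, 8 fell in HCT116 and 2 in HCT116 oxpl-R, against 7.55% and 2.8% of all genes. None was called by the interaction, or 2 positive and 22 negative without both libraries, where 29 rose in HCT116. Of 39 nucleolar factors of ribosome biogenesis, 10 fell and 1 rose in HCT116, and none was called in HCT116 oxpl-R. Without both libraries, 4 positive and 5 negative interactions were called. As reported, the interaction was called at 2 (5.13%, against 2.44% of all genes), both positive. They were NPM1 and POLR1C, and both were lost without HCT116 control replicates 1 and 2 and HCT116 oxaliplatin replicate 1. Of 24 genes of cholesterol synthesis and uptake, 8 fell and 1 rose in HCT116, 2 fell and 1 rose in HCT116 oxpl-R and none was called by the interaction, or 8 positive and 3 negative without both libraries. Of 25 hypoxia-inducible genes, 3 fell and 2 rose in HCT116, and 2 rose in HCT116 oxpl-R. The interaction was called at 1 (4%, against 2.44% of all genes), or at 1 positive and 2 negative without both libraries. The call was ANGPTL4, a secreted inhibitor of lipoprotein lipase, with 579, 579 and 593 normalized counts in HCT116 controls, 1963, 1878 and 1678 after oxaliplatin, 892, 717 and 627 in HCT116 oxpl-R controls and 1031, 836 and 705 after oxaliplatin. Its interaction was -1.45 ± 0.27 (adjusted p = 0.00784). Of the 19 colon epithelial markers, 4 rose in each line, KRT19 by 1.03 and 1.18, and none was called by the interaction, or 1 without both libraries.

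Outside the lists, the named genes are those with the largest and smallest interactions among called genes with at least 100 normalized counts in their highest group. Among the negative ones called in all 12 fits that left out 1 library, C1QL1, a secreted protein of the C1q family, had 138, 124 and 139 normalized counts in HCT116 controls, 545, 466 and 545 after oxaliplatin, 99.3, 142 and 148 in HCT116 oxpl-R controls and 51, 67.1 and 72.1 after oxaliplatin. It rose by 1.96 in HCT116 and fell by 1.04 in HCT116 oxpl-R (interaction -2.99 ± 0.33, adjusted p = 8.63e-05). HOXA4, a homeobox factor, had 96.5, 110.1 and 127 and then 497, 511 and 358 in HCT116, and 134, 132 and 137 and then 83.7, 105 and 78.9 in HCT116 oxpl-R. It rose in HCT116 by 2.03 and did not pass the test in HCT116 oxpl-R (-0.59), with an interaction of -2.62 ± 0.33.

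SP5, a transcription factor of the WNT pathway read from the second table, went from 55.1, 30.8 and 50.5 to 170.2, 137 and 145 in HCT116, and in HCT116 oxpl-R had 144, 128 and 149 and then 129.7, 77.7 and 92.7. KLK11, a secreted serine protease, had 3.75, 0 and 0.99 normalized counts in HCT116 controls, 15.7, 32.2 and 16.7 after oxaliplatin, 155, 132 and 153 in HCT116 oxpl-R controls and 144, 159 and 162 after oxaliplatin. For both genes the rise in HCT116 thus moved toward, or reached, a level that HCT116 oxpl-R held before treatment. The size of the KLK11 interaction rests on HCT116 controls near 0 counts and is uncertain. In the doxycycline groups described below, it was -3.4e-05 and not called. TREX1, the exonuclease that clears cytosolic DNA, had 368, 322 and 474 and then 579, 618 and 536 in HCT116, and 339, 372 and 451 and then 93.5, 121 and 122 in HCT116 oxpl-R, an interaction of -2.36 ± 0.32. TMPO-AS1, an antisense RNA whose reads may mix with those of TMPO, had an interaction of -2.29 ± 0.39. TREX1, TMPO-AS1 and SP5 are values of the second table.

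Among the positive ones, KLHL30, a kelch protein, had 77.8, 89.6 and 83.4 normalized counts in controls and then 213, 199.6 and 253 in HCT116, and 24.6, 16.7 and 30.5 and then 281, 201 and 227 in HCT116 oxpl-R. The treated samples of the lines overlapped, and the interaction of 1.90 ± 0.37 came with the lower controls of HCT116 oxpl-R.

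SUGCT, a mitochondrial glutarate transferase read from the second table, had 78.4, 84.9 and 119.9 and then 84.0, 42.2 and 32 in HCT116, and 306, 284 and 215 and then 784, 1471 and 3052 in HCT116 oxpl-R, where the treated samples were spread widely. Its interaction was 3.56 ± 0.58. PRDM16, a transcriptional regulator, had 417, 425 and 493 and then 61.6, 35.3 and 76.9 in HCT116, and 276, 204 and 282 and then 186, 129 and 203 in HCT116 oxpl-R. It fell by 2.94 in HCT116, and the interaction of 2.38 ± 0.39 came with that fall. SORCS2, a sortilin receptor of the second table, had 13.1, 8.39 and 30.7 and then 49.2, 46.3 and 119 in HCT116, and 32.4, 7.45 and 15.3 and then 812, 852 and 662 in HCT116 oxpl-R. Its interaction of 3.36 ± 0.70 (adjusted p = 0.015) was not called without HCT116 control replicate 3 (2.68), while KLHL30, SUGCT and PRDM16 were called in all 12 such fits. PRDM16 was not called when the second table replaced the count table (2.12).

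Genes that moved in opposite directions numbered 22 of the 540 called in both lines, all of them called by the interaction, 19 that rose in HCT116 and fell in HCT116 oxpl-R and 3 the other way, with 5 and 1 more after SETP6. E2F1, PKMYT1 and C1QL1, given above, had the smallest p of the first kind. Of the second kind, GNAI1, an inhibitory G protein subunit, went from 6841, 6617 and 5847 to 3285, 3671 and 3729.9 in HCT116 and from 1845, 1788 and 1671 to 2248, 2998 and 3069.8 in HCT116 oxpl-R (interaction 1.502 ± 0.23). LPIN3, a phosphatidate phosphatase, went from 500.5, 504 and 548 to 339, 301 and 323 in HCT116 and from 635, 614 and 658 to 1105, 966 and 1088 in HCT116 oxpl-R (interaction 1.42 ± 0.25). TFDP2, the dimerization partner of E2F factors, of the second table, went from 1608, 1548 and 1299.7 to 765, 1065 and 766 in HCT116 and from 2817, 2770.2 and 2874 to 3962, 4707 and 6962 in HCT116 oxpl-R (interaction 1.67 ± 0.29). In all 3 the controls and treated samples of each line did not overlap.

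Several of the largest values rest on few libraries or on RNA that the poly(A) selection should not keep. ACTA1, the actin of skeletal muscle, had 29003 normalized counts in HCT116 oxpl-R oxaliplatin replicate 2 and at most 369 elsewhere, and its interaction of 12.70 was 2.69, and not called, without that library. It was also lost without HCT116 control replicate 3 (8.996), HCT116 oxaliplatin replicate 2 (12.85) and HCT116 oxpl-R control replicates 1 (13.32) and 2 (12.25). RN7SK, a small nuclear RNA without a poly(A) tail, ranged from 0 to 801 within the HCT116 controls. FAM225A was at 0 in the 3 HCT116 controls, at 0, 13.5 and 12 after oxaliplatin, and at 98.7 to 139 in HCT116 oxpl-R. GPX3 was at 0 in the HCT116 controls, at 5.22, 2.08 and 0 after oxaliplatin, and at 20.1, 59.3 and 20.3 and then 4.81, 4.13 and 4.51 in HCT116 oxpl-R. No fold is given for RN7SK, FAM225A and GPX3. CBS, which makes cystathionine, shares its reads with a near-identical copy and is uncertain.

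The shared part of the response was larger in number than the opposite part. At 493 genes of the count table and 77 after SETP6 both lines were called in the same direction and the interaction was not. At 349 of these, with at least 100 normalized counts in the highest group, the 95% interval of the interaction lay within -1 and 1, and 255 of the 349 rose and 94 fell. GRIN2C, a glutamate receptor subunit, had 15.0, 15.9 and 12.9 and then 122, 123 and 121 normalized counts in HCT116, and 99.3, 127 and 94.6 and then 839.8, 771 and 587 in HCT116 oxpl-R. Its responses of 3.05 and 2.77 differed by less than their error, from levels that differed between the lines. MIR31HG, the host RNA of miR-31, had 112, 89.6 and 62.5 and then 493, 527 and 269.6 in HCT116, and 106, 116 and 91.5 and then 343, 539.9 and 534 in HCT116 oxpl-R, where both the start and the end overlapped between the lines. ARSB, a lysosomal sulfatase, fell by 1.52 and 1.3.

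The HCT116 response was related to how much of the genome a gene spans, and the HCT116 oxpl-R response was not to the same extent. Spans were taken from GENCODE release 44 (GRCh38) for 10931 expressed genes. In HCT116 the median response went from 0.44 for 1229 genes under 5 kb, through 0.31, -0.07 and -0.32 in the bins of 5 to 20, 20 to 50 and 50 to 100 kb, to -0.44 for 2091 genes of 100 kb and over. In HCT116 oxpl-R the same bins gave -0.01, 0.07, 0.04, 0.02 and -0.06. The median interaction accordingly rose from -0.45 to 0.32. Calls followed, with 7 positive and 79 negative under 5 kb and 34 positive and 6 negative at 100 kb and over. The median span was 41.7 kb for positive calls, 12.2 kb for negative calls and 30.3 kb for expressed genes. Across genes, Spearman's rho of the response with span was -0.40 in HCT116 and -0.08 in HCT116 oxpl-R, a description over genes that share libraries.

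The trend differed between the HCT116 samples. The median of the longest genes minus that of the shortest, against the mean of the line's own controls, was -1.28, -1.16 and -0.31 in HCT116 oxaliplatin replicates 1, 2 and 3, and -0.26, -0.13 and 0.12 in HCT116 oxpl-R oxaliplatin. All 3 treated HCT116 samples lay below the 3 treated HCT116 oxpl-R samples, and replicate 3 was close to them. When each library's trend with span and transcript length was removed, 413 genes were called, 162 positive and 251 negative, and 279 of the 437 remained (63.8%). With the trend removed, 13 G2 and M genes and 21 replication genes were called, all negative, and the median spans in these lists were 29.2 and 25.1 kb. In oxidative phosphorylation, whose genes span 12.7 kb at the median, 1 call in place of 4 was left, and 6 genes in place of 13 rose in HCT116. GNAI1 was then at 0.99 and not called (adjusted p = 0.052). Other calls lost with the trend removed included the positive ones of SUSD6 (0.88) and TNFRSF10A (0.96). Negative calls lost included GSTP1 (-0.64), PCK2 (-0.97), ARC (-0.91), FOSL1 (-0.79) and HSPB1 (-0.53).

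The same difference was measured in the 12 libraries with doxycycline, in which E1A, a viral protein that releases E2F from the retinoblastoma protein, was induced. These share no sample with the 12 above but are not replicates of the same condition. There the interaction was called at 13 of 18360 genes (0.0708%), 7 positive and 6 negative, with 1293 (7.04%) at an unadjusted p below 0.05. Leaving out single libraries gave 2 to 79 calls. The count was 4 and 2 without HCT116 E1A replicates 1 and 3, 75 without HCT116 E1A + oxaliplatin replicate 1, 53, 52 and 79 without HCT116 oxpl-R E1A replicates 1, 2 and 3, 8 without HCT116 oxpl-R E1A + oxaliplatin replicate 1, and 9 to 16 without any other.

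Of the 437 genes called without doxycycline, 433 had the same sign with it (99.1%), against 77.5% of 10564 expressed genes that were not called. Of these 433, 221 had an unadjusted p below 0.05 there and 10 an adjusted p below 0.05, and none of the 4 others had an unadjusted p below 0.05. The median interaction was 0.82 with and 1.27 without doxycycline for positive calls, and -0.61 and -1.35 for negative calls. The trend with gene span was also present, from -0.26 under 5 kb to 0.21 at 100 kb and over. HOXA4 and ANGPTL4 were called there too, at -1.98 ± 0.36 and -1.86 ± 0.34 (adjusted p = 0.0349 for both). MDM2 at 1.39 and CDC20 at -1.37 had an adjusted p of 0.059 each.

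For E2F1 and several replication and mitotic genes, values with doxycycline were smaller in size, as were the medians over all called genes. These genes were chosen by their values without doxycycline. The interaction was -0.76 ± 0.27 for E2F1, -0.61 for CDT1, -0.30 for MCM5, -1.0 for FOXM1 and -1.20 for PLK1, none of them called there. In 1 fit of all 24 samples, the interaction without doxycycline differed from that with it at 1 gene of 17876 (0.00559%), with 557 (3.12%) at an unadjusted p below 0.05. That gene was E2F1, at -1.92 ± 0.31 (adjusted p = 0.0421).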

How the data were processed

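RNA of the 2 lines was sequenced after poly(A) selection (Hieff NGS kit, paired-end reads). The authors trimmed reads with Trimmomatic, quantified GENCODE transcripts of GRCh38 with Salmon 1.6.0, correcting for GC and sequence bias, and used tximport to sum transcripts into genes, so the deposited values are estimated counts per gene, not normalized. Bias corrections and multi-mapping reads make single counts of near-identical genes uncertain. The second deposited table is named as TPM but its columns sum to 28004261 to 35341658, so it was read as estimated counts scaled by length and tested in the same way, as had been planned for that case. Both tables end within the alphabet. TSC22D4 and the genes that follow it were not analysed here.

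Here, values were rounded and genes at 0 in all 12 samples were dropped. The fit used edgeR 4.0.16 in R 4.3.3 (TMM normalization, 1 mean per group, quasi-likelihood test, Benjamini-Hochberg adjustment over all genes tested, over the whole second table for genes after SETP6). No other covariate was used. SE is the absolute log2 value over the square root of F, and 95% intervals use the t distribution of the fit. Samples were grouped by the labels. Sensitivity at 3 samples per group was gauged in simulated counts of 17275 genes for this comparison. Apart from planted interactions, the simulated counts held no oxaliplatin response. Interactions were planted only in genes averaging at least 100 counts, 50 genes per value. Of these, 86% at an interaction of 2 and 80% at -2 were called, but 14% at 1 and 10% at -1. Of unchanged genes, 0.0996% were called. For genes with fewer counts the share called was not measured. Alternatives were RLE normalization, DESeq2 1.42.0, filterByExpr, all 24 samples in one fit, limma 3.58.1 on the log2 second table with a pseudocount of 1 or 0.1, a block for replicate number, leaving out each sample, and, chosen after seeing the data, both libraries left out, a block in HCT116 oxpl-R only, no mitochondrial genes and removal of the trend with length (splines of 5 degrees of freedom). Spans come from GENCODE 44 and promoters from RefSeq, joined by symbol. Tables were prepared in Python 3.11.15.

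The comparison, the 24 gene lists and the rule for named genes were chosen with earlier results of these data known. The rule took, among called genes with |log2| above 1 and at least 100 normalized counts in the highest group, the 10 largest and 10 smallest interactions, 4 and 4 after SETP6, up to 4 called members of each list or its 2 most abundant, 3 opposite responses of each orientation and 3 shared responses of each direction. Not all genes the rule selects are reported here, and genes outside it that illustrate a list were chosen after their values were seen. Same-numbered samples deviated together between HCT116 oxpl-R controls and treated samples (correlations 0.11, 0.307 and 0.406) but not over all groups (7 of 18 above 0.1, the lowest -0.286), so the fit had no block, and blocks were alternatives.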

Additional observations from a re-analysis of the deposited data

Results flagged for a closer look

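The difference between the lines is itself a test of whether 2 groups responded differently, so each of these results was marked for that reason, and no explanation was weighed. The oxaliplatin response differed at 437 genes of the count table and at 112 genes after SETP6. Within the groups of 3 samples no test for a single outlying sample was made. Responses of opposite direction, each called in both lines, were found for E2F1 at -2.65, PKMYT1 at -2.37 and C1QL1 at -2.99, which rose in HCT116 and fell in HCT116 oxpl-R, and for GNAI1 at 1.502, TFDP2 at 1.67 and LPIN3 at 1.42, which fell in HCT116 and rose in HCT116 oxpl-R. E2F1 was also the gene at which the difference between the lines differed between samples without and with doxycycline, by -1.92 on the log2 scale.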

How the results depend on the processing

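The direction of the interaction was the same as reported at all 437 called genes under every alternative that gave a value. The alternatives reuse the samples by which these genes were selected, so this is no independent check. The count of 437 became 1303 with DESeq2, 848 with filterByExpr, 791 with all 24 samples and 666 with the second table. It became 102 at an adjusted p below 0.01, and 3233 without both libraries named in the Results. It stayed within 1.5 times with RLE normalization (485), without mitochondrial genes (438) and with the length trend removed (413, where the split was 162 positive to 251 negative). Of the responses, 3110 in HCT116 became 5774 without both libraries, and 1045 in HCT116 oxpl-R became 1682 with DESeq2 and 1694 without both. The 112 genes after SETP6 became 300 with DESeq2, 465 without both libraries, and 58 and 60 with limma at pseudocounts of 1 and 0.1. The 13 calls with doxycycline became 107 with DESeq2, 2 with filterByExpr, 28 with all 24 samples and 26 with the trend removed. The 65 called list members became 115 with DESeq2 and 258 without both libraries.

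Leaving out each sample in turn gave 127 to 1567 genes for the interaction, 36 to 327 after SETP6, 1494 to 4776 for the HCT116 response, 668 to 1487 for the HCT116 oxpl-R response, 2 to 79 with doxycycline, 36 to 73 called named genes (68 as reported) and 30 to 159 list members. The cause of these moves was not tested. Of the values of named genes under all alternatives, 1924 kept their side of the threshold, within their error where the gene was not called. Another 265 lost the call and 21 gained it. The last 21, of genes that were not called, stayed so but moved by more than their error. None of the 68 called genes changed direction, and 11 of the 29 that were not called did so under at least 1 alternative.

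With the replicate number as a block, as if same-numbered samples were pairs, 363 genes were called, 71 after SETP6 and 48 with doxycycline, and 342 of the 437 remained. The block lost 9 of the 65 list calls, DDB2, ACER2, TNFRSF10A, RRM2, ATOX1, GPX3, GSTP1, EGR1 and HSPB1. With the block in HCT116 oxpl-R only, 883 genes and 113 list members were called, and the 65 list calls all remained. Genes near 0 counts have wide errors.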
